A study of Mus musculus with 94 samples.

Results

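The genotype difference in the response to methylazoxymethanol (MAM) was examined in mouse brain 168 hr after treatment. For every probe set of the array it is the change from vehicle to MAM in Mgmt-/- mice minus the same change in wild-type (wt) mice, called the interaction here, and a positive value means that the level rose more, or fell less, in Mgmt-/- brain. All 23 arrays of the 168 hr time point were considered and 22 of the 94 arrays of the series were used. The animals were male, 11 weeks old and of the C57BL6 strain, and the Mgmt-/- mice, which lack MGMT, were on the same background. Each received a single intraperitoneal injection of MAM acetate or of vehicle, and total RNA of brain tissue was hybridized to Affymetrix mouse genome arrays. The 4 groups were 6 wt mice given vehicle, 5 wt mice given MAM, 6 Mgmt-/- mice given vehicle and 5 Mgmt-/- mice given MAM, all killed at 168 hr. Animal numbers fall into a lower set (number set 1) and a higher set (number set 2), and number set was a blocking term. The study worked at more than a single laboratory, and neither labels nor methods tell which set belongs to which. Within a group the animals used are lettered here in the order of their numbers, A to E or F, and arrays are listed in that order. Those of number set 1 are A to C in the vehicle groups and A and B in the MAM groups. All values are log2 RMA values as deposited, so a difference of 1 is a doubling.

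MAM is the aglycone of cycasin, a toxin of cycad plants, and it passes methyl groups to DNA. MGMT is the repair protein that takes a methyl group off the oxygen of guanine, and cells without it keep that lesion. Glucocorticoids, the stress hormones of the adrenal cortex, act on neurons and glia through a nuclear receptor, and a set of genes that they induce in brain is known from many systems. Cholesterol of the adult brain is made locally, much of it for myelin, by a chain of enzymes whose genes are controlled together by sterol-sensing factors.

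The array of another Mgmt-/- MAM animal was left out because it carried liver RNA. Alb (albumin) stood at 14.05 there and Snap25, a synaptic protein, at 4.50, against 12.95 to 13.28 for Snap25 on the other 22 arrays. Those 22 arrays carried the markers of brain tissue, with Mbp of myelin at 13.48 to 13.67 and Slc1a2 of astrocytes at 12.25 to 12.66. A trace of liver transcripts was uneven among them. The mean level of 15 liver genes was 7.38 on wt vehicle animal C, 6.56 and 6.38 on Mgmt-/- vehicle animals B and C, 6.41 on Mgmt-/- MAM animal B and at most 5.88 on the other 18. The 1 probe set named Mgmt read 5.49 to 5.91 on the 11 wt arrays and 5.40 to 6.15 on the 11 Mgmt-/- arrays, so the groups overlapped. Where that probe set lies relative to the disrupted part of the gene is not stated, and it does not check the genotype. The genotypes did separate elsewhere, since 66 of 45101 probe sets had no overlap between the 11 wt and 11 Mgmt-/- arrays. An example, picked because it separates, is a probe set of Camk2a, a synaptic kinase. It read 8.37 to 9.39 in wt and 7.27 to 8.04 in Mgmt-/- brain.

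MAM changed 19 genes differently in the genotypes at 168 hr, 14 with a positive and 5 with a negative interaction. They were called by limma's moderated test at an adjusted p under 0.05 and a fold above 1.3, among 32025 kept probe sets that name 15122 genes. The share of genes called was 0.126% in either direction, 0.0926% positive and 0.0331% negative. Without adjustment, 2275 kept probe sets had p under 0.05 (7.10%), 933 positive and 1342 negative. The positive genes, from the largest interaction down, were Sult1a1, Sgk1, Etnppl, Gm19439, Apod, Fam107a, Xdh, Fkbp5, Fbln5, Agt, Cyp2d22, Gjb6, Dbndd2 and Prodh. The negative genes were Mpp6, Ugt8a, Mthfd2, Msmo1 and Qdpr. Another 3 called probe sets have no single gene symbol, with interactions of 1.37, 0.97 and -0.65. The count depended on single arrays. With 1 array left out it rose to 36 without Mgmt-/- MAM animal D and to 21 without wt MAM animal B. In every other such run it fell below 19. It was 10 without wt MAM animal C or Mgmt-/- vehicle animal D. It was 11 without wt vehicle animal B, wt MAM animal D or Mgmt-/- MAM animal A, and 12 without wt MAM animal E or Mgmt-/- MAM animal B. Sult1a1, Etnppl, Gm19439, Fam107a, Fbln5 and Cyp2d22 were called whichever of the 22 arrays was left out. By the probe set used here, Gjb6 kept its call in 21 of the 22 runs, Mpp6 in 20, Sgk1 and Fkbp5 in 19 and Ugt8a in 17. Apod kept it in 8, Msmo1 in 7, Agt and Qdpr in 6, Mthfd2 in 5, Xdh and Dbndd2 in 3 and Prodh in 1.

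The difference lay mostly in the response of Mgmt-/- brain. MAM minus vehicle ran from 0.48 to 1.67 in Mgmt-/- mice for the 14 positive genes and from -0.20 to 0.21 in wt mice. For the 5 negative genes it ran from -0.79 to -0.37 in Mgmt-/- mice and from -0.07 to 0.41 in wt mice. In Mgmt-/- brain the effect of MAM was itself past an adjusted p of 0.05 (limma) for 18 of the 19 genes, Mpp6 being the exception, and in wt brain for 0 of the 19. Vehicle-treated brains of the genotypes differed by -0.16 to 0.37 in these genes, and none of those differences passed the test. Over all genes, MAM minus vehicle was called for 58 genes that rose and 71 that fell in Mgmt-/- brain and for 0 in wt brain, where the smallest adjusted p by limma was 0.674 and 1285 kept probe sets had an unadjusted p under 0.05.

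**Figure D1:**
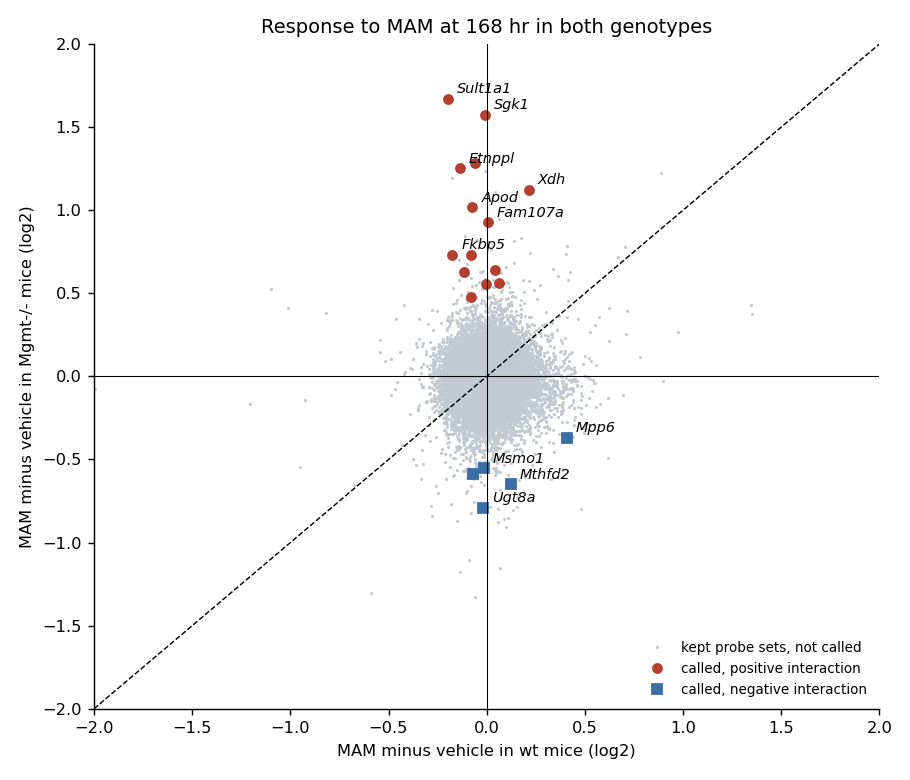
MAM minus vehicle at 168 hr (log2) in wt mice (horizontal axis) and Mgmt-/- mice (vertical axis), 1 gray point for each kept probe set, with the 14 genes of positive interaction as red circles, the 5 of negative interaction as blue squares and the dashed line where both genotypes respond alike. The called genes stand along the vertical axis, between -0.20 and 0.41 in wt mice, and Sult1a1 is highest at 1.67 in Mgmt-/- mice.

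The promoters of Sult1a1 and Msmo1 are shown as the called genes of largest change in the glucocorticoid-induced and cholesterol synthesis lists described later. They are the RefSeq windows around the annotated start, on the minus strand of GRCm38.p6, Sult1a1 at chr7:126676369-126676668 and Msmo1 at chr8:64733529-64733828. Capitals mark matches, on either strand, to the glucocorticoid receptor half-site TGTTCT and to the CCAAT box that the factor NF-Y reads.
Sult1a1: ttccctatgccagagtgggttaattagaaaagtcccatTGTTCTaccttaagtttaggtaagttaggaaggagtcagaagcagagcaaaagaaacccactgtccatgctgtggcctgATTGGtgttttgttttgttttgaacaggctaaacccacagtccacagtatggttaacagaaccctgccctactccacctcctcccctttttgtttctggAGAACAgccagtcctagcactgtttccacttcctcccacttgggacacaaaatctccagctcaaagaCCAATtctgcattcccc
Msmo1: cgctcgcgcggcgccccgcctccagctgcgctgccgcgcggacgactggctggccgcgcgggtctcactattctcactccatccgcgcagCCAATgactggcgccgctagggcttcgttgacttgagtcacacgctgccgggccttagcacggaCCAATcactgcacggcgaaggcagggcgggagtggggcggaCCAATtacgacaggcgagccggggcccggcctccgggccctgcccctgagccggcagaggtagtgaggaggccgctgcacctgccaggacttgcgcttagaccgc
The Sult1a1 window holds 2 half-sites and 2 CCAAT boxes, and the Msmo1 window holds 3 CCAAT boxes and 0 half-sites. The window of Fkbp5, another called gene of the glucocorticoid-induced list, is not shown and holds 0 half-sites and 2 CCAAT boxes. A half-site was present in 19.0% of all 32851 windows and in 20.5% of the 39 windows of the glucocorticoid-induced genes matched. CCAAT was present in 37.4% of all windows and in 72.7% of the 22 windows of cholesterol synthesis genes matched, 16 of whose 18 matched genes hold it. The sterol element TCACCCCAC was in 0.551% of all windows and in that of 1 of those 18 genes. These are matches of letters in a short window and were not set against binding.

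Sult1a1, a cytosolic sulfotransferase of phenols, had the largest positive interaction of any gene tested. Its level was 8.46, 8.75, 8.82, 8.02 and 8.77 on the 5 Mgmt-/- MAM arrays. Mgmt-/- vehicle arrays ran from 6.68 to 7.10 (median 6.87), wt vehicle arrays from 6.66 to 6.94 (median 6.75), and wt MAM arrays read 6.90, 6.16, 6.49, 6.74 and 6.51. The lowest Mgmt-/- MAM array was above every other array. The interaction was 1.87 ± 0.19 (SE), a 3.65-fold difference, with an adjusted p of 2.6e-05 (limma). Number sets 1 and 2 taken alone both gave 1.88.

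Sgk1, the serum- and glucocorticoid-regulated kinase, followed. It read 10.88, 11.35, 11.15, 10.22 and 10.93 on the Mgmt-/- MAM arrays and 9.46, 8.79, 9.42, 9.48 and 9.74 on the wt MAM arrays. Vehicle arrays lay between 9.14 and 9.51 (median 9.32) in Mgmt-/- mice and between 9.24 and 9.64 (median 9.35) in wt mice. Again no Mgmt-/- MAM array overlapped any other. The interaction of 1.58 ± 0.22 was 2.99-fold (limma, adjusted p = 0.00145), and it was 2.06 within set 1 and 1.26 within set 2.

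Etnppl encodes a lyase of phosphoethanolamine that astrocytes express. On the Mgmt-/- MAM arrays it read 10.55, 10.38, 10.80, 10.26 and 10.51, whereas wt MAM arrays read 8.90, 8.87, 8.78, 9.05 and 9.11. Its vehicle levels were 8.75 to 9.43 (median 9.33) in Mgmt-/- and 8.85 to 9.17 (median 9.08) in wt brain, so the treated Mgmt-/- animals were apart from all. The interaction was 1.39 ± 0.15, or 2.62-fold (limma, adjusted p = 7.4e-05).

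Fam107a, an actin-binding protein induced by stress hormones, was abundant in every group. The Mgmt-/- MAM arrays read 12.04, 11.98, 12.05, 11.73 and 11.94, against 11.31, 10.91, 10.96, 11.11 and 11.20 in wt mice given MAM. Vehicle arrays were between 10.92 and 11.10 (median 11.04) in Mgmt-/- and between 10.99 and 11.26 (median 11.10) in wt mice. Its spread within groups was small and the interaction of 0.92 ± 0.10 had an adjusted p of 7.4e-05 (limma). A brighter Fam107a probe set had 0.66 and was not called, and a dimmer probe set had 0.75 and was set aside before testing.

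Fkbp5, a co-chaperone that lowers hormone binding by the glucocorticoid receptor, read 7.37, 7.66, 7.27, 6.58 and 6.95 on the Mgmt-/- MAM arrays. Its wt MAM arrays read 6.48, 6.36, 6.35, 6.23 and 6.14, and vehicle arrays ran from 6.27 to 6.80 (median 6.40) in Mgmt-/- and from 6.42 to 6.64 (median 6.47) in wt mice. The groups overlapped here, Mgmt-/- MAM animal D lying below Mgmt-/- vehicle animal A (6.80) and wt vehicle animals A (6.64) and C (6.63). The interaction was 0.91 ± 0.15 (limma, adjusted p = 0.0146), and a brighter Fkbp5 probe set gave 0.88 (adjusted p = 0.0205).

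Fbln5, a fibulin of elastic fibers and vessel walls, stood at 7.56, 7.59, 7.71, 7.07 and 7.33 on the Mgmt-/- MAM arrays and at most at 6.94 on all others. Its interaction was 0.81 ± 0.13 (limma, adjusted p = 0.00986). Apod, a lipid-carrying lipocalin of glia, read 8.40, 8.70, 8.54, 7.90 and 8.0 against at most 7.54 elsewhere, with an interaction of 1.09 ± 0.20 (adjusted p = 0.0288). Both genes were thus without overlap. A brighter Apod probe set, with a mean level of 11.71 against 7.47, gave an interaction of 0.62 and was set aside. Xdh, which oxidizes purines to urate, read 6.19, 7.06, 6.65, 6.47 and 6.92, all above the 5.86 that was highest elsewhere (interaction 0.91 ± 0.17, adjusted p = 0.0453). Agt, the angiotensin precursor that astrocytes make in brain, read between 9.85 and 10.10 on the Mgmt-/- MAM arrays and at most 9.50 elsewhere, and Mgmt-/- vehicle animal A was its lowest array at 8.72 (interaction 0.75 ± 0.14, adjusted p = 0.0321).

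The predicted gene Gm19439 had an interaction of 1.35 ± 0.21 (limma, adjusted p = 0.00839). Its Mgmt-/- MAM arrays lay between 7.86 and 8.76 and the others at 7.41 or below. The 4 smallest positive interactions, of which those of Cyp2d22, Dbndd2 and Prodh were chosen for mention after their values were seen, were those of Cyp2d22, a cytochrome P450, at 0.60 ± 0.09, Gjb6, the astrocyte connexin 30, at 0.56 ± 0.09, Dbndd2 at 0.56 ± 0.11 and Prodh, an enzyme of proline breakdown, at 0.50 ± 0.10. All of them were above every other array on the 5 Mgmt-/- MAM arrays, although adjusted p for Dbndd2 and Prodh was 0.0499. Other Dbndd2 probe sets gave 0.10 to 0.47, with 0.22 in the brightest, and none of them was called. The dim probe set at 0.10 had been set aside before testing.

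**Figure D2:**
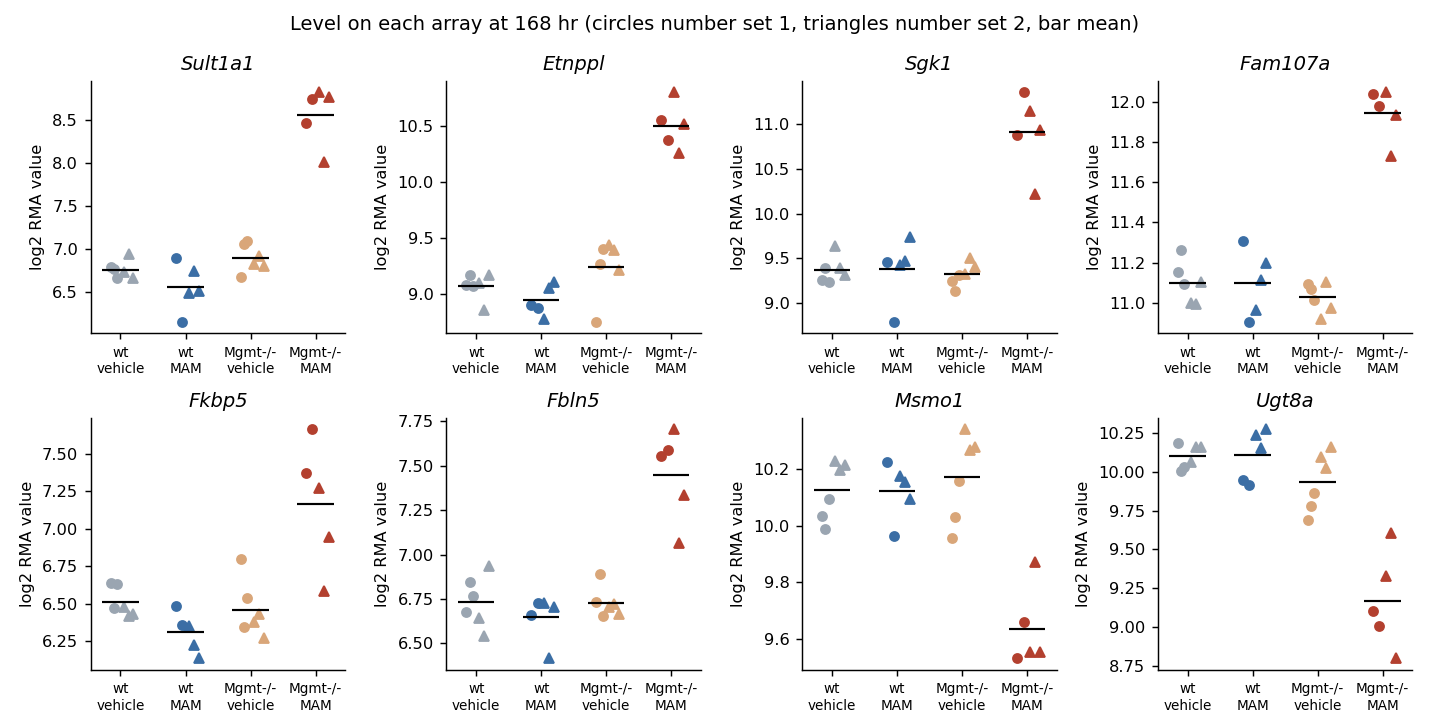
Log2 RMA value (vertical axis) of 8 called genes on each of the 22 arrays by group, circles for number set 1, triangles for number set 2 and a bar at the group mean. For Sult1a1, Etnppl, Sgk1, Fam107a and Fbln5 the 5 Mgmt-/- MAM arrays lie above all others, for Msmo1 and Ugt8a below all others, and for Fkbp5 the groups overlap.

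The negative side held enzymes of lipid and pterin metabolism. Ugt8a adds galactose to ceramide, a step in making the main glycolipids of myelin. It read 9.10, 9.01, 9.33, 9.60 and 8.80 on the Mgmt-/- MAM arrays and 9.95, 9.92, 10.23, 10.15 and 10.27 on the wt MAM arrays. In vehicle it lay between 9.69 and 10.16 (median 9.94) in Mgmt-/- and up to 10.18 (median 10.11) in wt mice. Every Mgmt-/- MAM array was below every other array. The interaction was -0.77 ± 0.14 (limma, adjusted p = 0.0205), and a dimmer Ugt8a probe set, set aside, gave -0.74.

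Msmo1, the sterol methyl oxidase of cholesterol synthesis, read 9.53, 9.66, 9.55, 9.87 and 9.56 in Mgmt-/- mice given MAM and 10.23, 9.97, 10.18, 10.16 and 10.09 in wt mice given MAM. Vehicle arrays ran from 9.96 to 10.34 (median 10.21) in Mgmt-/- and from 9.99 to 10.23 (median 10.15) in wt mice. The treated Mgmt-/- arrays were again below all others. Its interaction was -0.54 ± 0.10 (limma, adjusted p = 0.0269), and it was -0.51 within set 1 and -0.57 within set 2.

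Qdpr, which regenerates the pterin cofactor of monoamine synthesis, read 10.47, 10.51, 10.49, 10.87 and 10.51 on the Mgmt-/- MAM arrays and at least 10.93 on all others (interaction -0.52 ± 0.10, limma, adjusted p = 0.0288). A brighter Qdpr probe set gave -0.29 and was not called. Mthfd2, a mitochondrial folate enzyme, read 6.07, 6.51, 6.48, 6.46 and 6.13, and wt vehicle arrays overlapped these with 6.18 to 6.95 (interaction -0.77 ± 0.15, adjusted p = 0.0399). Another Mthfd2 probe set of similar level gave -0.05 and was not called. For Mpp6, a membrane scaffold, MAM minus vehicle was -0.37 in Mgmt-/- and 0.41 in wt brain and neither passed the test. Its called probe set was dim, with all 22 arrays between 4.34 and 5.42, and its brighter probe sets gave interactions of 0.03 and 0.02.

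Of the 19 called genes, 13 lay above all 17 other arrays on the 5 Mgmt-/- MAM arrays, 3 below all and 3 overlapped. Among all genes with a kept probe set, 0.317% were above all and 0.337% below all in this way. These ranges come from the arrays that the calls rest on, so the count is a description. For 12 of the called genes a further probe set existed that was not called or was set aside. The brightest of these uncalled probe sets had the same sign for 9. For the positive genes among the 12 the median interaction was 0.91 in the called and 0.38 in the uncalled probe set. For the negative genes it was -0.77 in the called and -0.05 in the uncalled probe set.

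The arrays of the 5 treated Mgmt-/- mice were not shifted to the same extent in the called genes, and no test compared them. These genes were called with the same arrays, and with 1 array per animal the animal and its array cannot be told apart. Each array's shift from the mean of Mgmt-/- vehicle arrays of its number set, counted in the direction of the interaction, had a median over the 19 genes of 0.77 in animals A, B and C, 0.74 in animal E and 0.49 in animal D. Animal D had the smallest shift of the 5 for 12 of the 19 genes. Over all 18194 genes it had the smallest shift for 14.7%. For Sgk1 its shift was 0.81 against 1.52 to 2.12 in the other 4, and for Fkbp5 it was 0.22 against 0.59 to 1.10. Without animal D the number of genes called was 36, which included 18 of the 19.

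Within each number set, all 19 genes kept the sign of the interaction. Probe sets whose effects differed between the sets had been set aside before testing, so part of that is set by the filter. Over all 45101 probe sets the interactions of the number sets had a Pearson correlation of -0.15, and 43.8% had the same sign, with points that share arrays and normalization within a set.

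**Figure D3:**
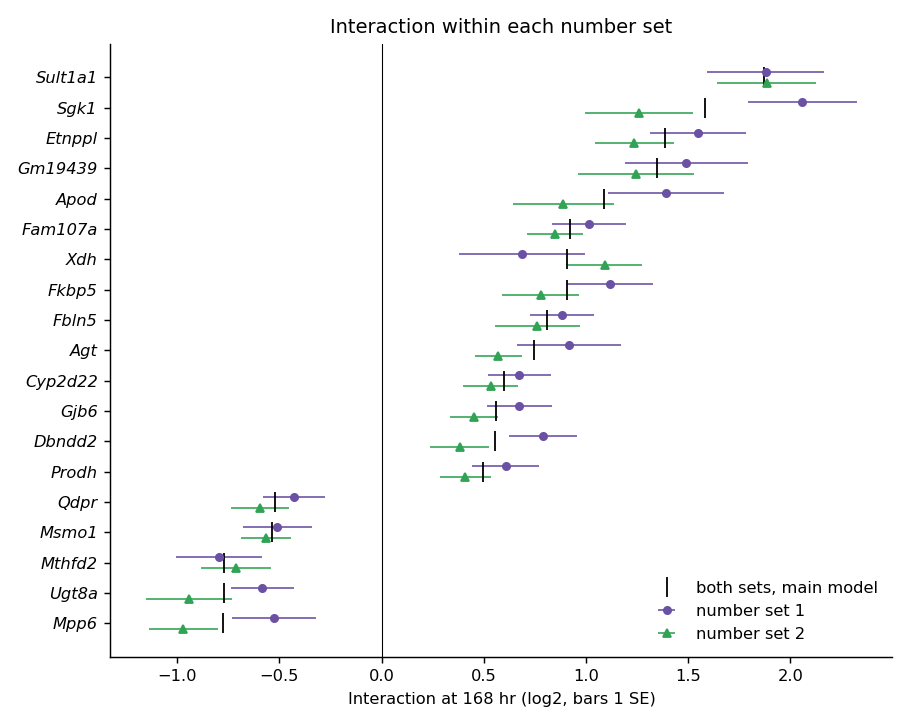
Interaction at 168 hr (log2, horizontal axis) of the 19 called genes, computed within number set 1 (purple circles) and number set 2 (green triangles) with bars of 1 SE, and in the model with both sets (black ticks). Every pair lies on the same side of 0, from 1.88 in both sets for Sult1a1 to -0.53 and -0.97 for Mpp6.

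The same contrast was computed in other animals killed at 6, 24 and 48 hr. The 19 genes were called on their values at 168 hr, which favors a larger size at that time. All 19 had a larger interaction in size at 168 hr than at any of the earlier times, and the smallest adjusted p (limma) among them at an earlier time was 0.405. The median of the 14 positive genes was -0.01 at 6 hr, -0.33 at 24 hr, 0.18 at 48 hr and 0.91 at 168 hr, and that of the 5 negative genes was 0.23, 0.02, -0.10 and -0.77. At 24 hr 2 of the 19 genes had the sign of 168 hr, and at 48 hr 15 had. The interaction at 168 hr minus the mean of the earlier ones was tested in a model of all 4 times. It passed for 4 genes: Sult1a1 at 2.15 ± 0.44 (adjusted p = 0.0329), Etnppl at 1.46 ± 0.26 (adjusted p = 0.00781), Fbln5 at 1.05 ± 0.20 (adjusted p = 0.0203) and Fam107a at 0.89 ± 0.18 (adjusted p = 0.0329). For the other 15 a difference between times was not shown, Sgk1 for example having 1.42 ± 0.40 (adjusted p = 0.388).

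**Figure D4:**
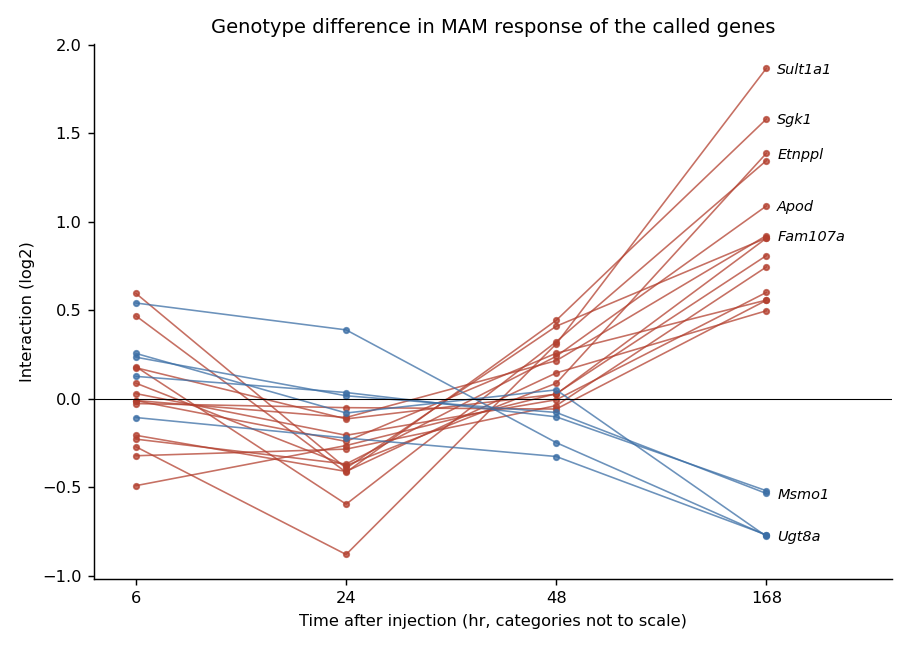
Interaction (log2, vertical axis) of the 19 called genes at 6, 24, 48 and 168 hr after injection, with positive genes in red and negative genes in blue and each time from other animals. The red lines lie between -0.88 and 0.60 up to 48 hr and between 0.50 and 1.87 at 168 hr.

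Of the 14 positive genes, 6 belong to a list of glucocorticoid-induced genes. The list was chosen with earlier results of these data known, so this count is a description. Of the list's 30 measured members 26 had a kept probe set, 6 were called positive (Sult1a1, Sgk1, Fam107a, Xdh, Fkbp5 and Gjb6) and 0 negative. Over all genes, 0.0926% were called positive and 0.0331% negative. By the brightest probe set, 27 of 30 had a positive interaction and 17 also an unadjusted p under 0.05, with a list median of 0.38, while over all 18194 genes 9152 were positive, 431 of them at that p, and the median was 8.6e-04. Members that were not called included Plin4, a lipid-droplet protein, at 1.24 ± 0.25 (limma, adjusted p = 0.0697), Arrdc2 at 1.07 ± 0.25, the cell-cycle inhibitor Cdkn1a at 0.84 ± 0.23 and Nfkbia, which restrains NF-kB, at 0.77 ± 0.19. Metallothioneins Mt1 and Mt2 had 0.31 and 0.39. The negative members of the 30 were Lcn2 at -0.70, Dusp1 at -0.40 and the clock gene Per1 at -0.19, and the last pair are also immediate early genes. Within set 1 the median of the list was 0.61, within set 2 it was 0.37, and at 6, 24 and 48 hr it was 0.03, -0.16 and 0.23.

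Averaged over the 30 genes, the level was 8.68, 9.12, 8.94, 8.52 and 8.84 on the 5 Mgmt-/- MAM arrays and 8.35, 8.32, 8.16, 8.22 and 8.48 on the wt MAM arrays. Vehicle arrays of both genotypes lay between 8.17 and 8.30. The lowest treated Mgmt-/- array, animal D, was 8.52 and the highest of all others, wt MAM animal E, was 8.48. Corticosterone was not among the measurements used here.

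On the negative side, Msmo1 belongs to a list of cholesterol synthesis genes, also chosen with earlier results of these data known. Of 21 measured, 17 had a kept probe set, Msmo1 was called negative and 0 were called positive. Over all genes, 0.0331% were called negative and 0.0926% positive. The interaction was negative for 19 of 21 and had an unadjusted p under 0.05 for 8, all negative, with a median of -0.25, where over all genes 9042 of 18194 were negative and 512 of them at that p. Mvd, Idi1, Cyp51, Sqle and Hmgcs1, which act along the chain from the mevalonate steps to sterols, had -0.48, -0.47, -0.33, -0.32 and -0.32 and were not called. Within set 1 the list median was -0.22 and within set 2 -0.23. Its mean level was 8.36, 8.38, 8.34, 8.51 and 8.25 on the Mgmt-/- MAM arrays and 8.53 to 8.74 on all others, so these did not overlap, and animal D was nearest to the others here as well. Of 17 fatty acid synthesis genes, 0 were called and the median was -0.17.

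The cell type lists for microglia, endothelium, oligodendrocytes, neurons and astrocytes all had a median below that of all genes, and no test compared them. In whole tissue, fewer cells of a type and less RNA per cell cannot be told apart. Over all genes 0.126% were called, and 9042 of 18194 were negative, 512 of them with an unadjusted p under 0.05. By the share called, lists of these sizes hold about none, so a count of 0 is a description. Of 26 oligodendrocyte and myelin genes Ugt8a was called, 18 were negative, 8 of them with an unadjusted p under 0.05, and the median was -0.17. That median was -0.09 without wt MAM animal B, -0.10 without Mgmt-/- MAM animal B and -0.09 with array weights. Among the structural genes of myelin, Mbp had an interaction of -0.05 and Cnp 0.02, while Opalin had -0.43 and Bcas1 -0.41, neither of them called. Of 19 microglia genes 0 were called, 18 were negative and the median was -0.29, with Olfml3 at -0.49, C1qc at -0.43 and Tmem119 at -0.33, but Csf1r at 0.01. The microglia list averaged 7.12 to 7.47 on Mgmt-/- MAM arrays and 7.47 to 8.10 on the others, and the ranges touched.

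Of 18 astrocyte genes measured, Gjb6 and Agt were called positive and 0 negative, the list median was -0.09, and Aqp4, the water channel of astrocyte endfeet, had -0.57 ± 0.14 (limma, adjusted p = 0.156) and S100b -0.34. Gfap had -0.32 and Slc1a2 -0.15. Endothelium genes had a median of -0.18 over 19, 13 of them negative, and it was -0.10 without wt MAM animal A or Mgmt-/- MAM animal A. Neuron genes had a median of -0.10 over 17, which lay between -0.13 and -0.04 with 1 array left out. No gene of either list was called, where 0.126% of all genes were.

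Liver genes had a positive median of 0.44 over 15, with 14 positive and 0 called. Over all genes 9152 of 18194 were positive and 0.126% were called. The median of the liver genes was 0.18 without wt vehicle animal C and 0.28 without Mgmt-/- vehicle animal A or wt MAM animal A. MAM minus vehicle had a median of -0.35 for them in wt and 0.16 in Mgmt-/- brain. Alb had 1.42 ± 0.93 and Serpina1c 1.62 ± 0.94, with errors that were large beside those of the called genes. Over groups the liver list averaged 5.35 to 6.41 on Mgmt-/- MAM arrays and 5.10 to 7.38 on the others. With wt vehicle animal C, Mgmt-/- vehicle animals B and C and Mgmt-/- MAM animal B left out, Sult1a1 had 1.93, Sgk1 1.45, Fam107a 0.92 and Msmo1 -0.58, and these were still called. Fkbp5 had 0.75 (limma, adjusted p = 0.0547) by the probe set used here and was called by its brighter probe set at 0.87 (adjusted p = 0.0121). Ugt8a had -0.78 (adjusted p = 0.0655) and lost its call, as did Apod, Xdh, Dbndd2, Prodh and Qdpr. The choice of these 4 arrays was made after seeing the data. In that setting 47 genes were called, 11 positive and 36 negative, and 11 of the 19 were among them. Etnppl (1.46) and Agt (0.77) were set aside there by the number set filter.

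**Figure D5:**
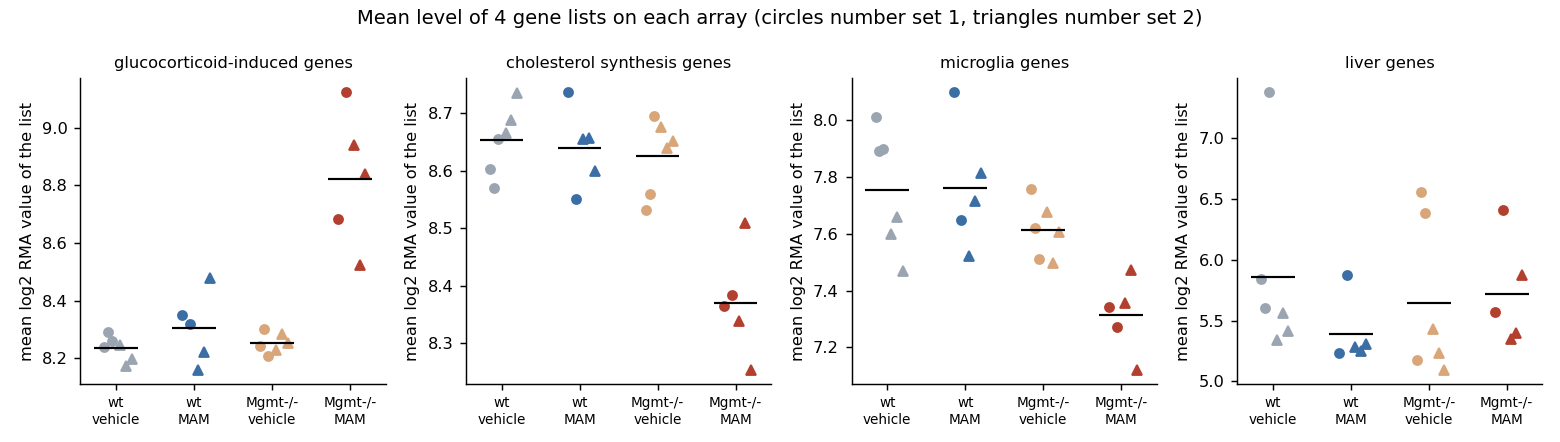
Mean log2 RMA value (vertical axis) of 4 gene lists on each of the 22 arrays by group, circles for number set 1, triangles for number set 2 and a bar at the group mean. Glucocorticoid-induced genes are at 8.52 or above on Mgmt-/- MAM arrays and at 8.48 or below elsewhere, cholesterol synthesis genes at 8.51 or below and 8.53 or above, and liver genes reach 7.38 on wt vehicle animal C.

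With 0.126% of all genes called, a list of this size holds about none by that share, and counts of 0 are given for the lists that follow as a description. Of 35 measured genes of alkylation, mismatch and excision repair 0 were called, 0 had an unadjusted p under 0.05 and the median was 0.05. Of 28 p53 target genes 0 were called and the median was 0.04, and those with an unadjusted p under 0.05 were Cdkn1a, Perp at 0.43 and Sesn1 at 0.31. Cdkn1a belongs to the glucocorticoid list as well. Of 32 interferon response genes 0 were called, 22 were negative and 10 positive, with a median of -0.12 and values from -0.41 to 0.40. Ifit1, an RNA-binding antiviral protein, had -0.32, made of 0.40 in Mgmt-/- and 0.71 in wt brain.

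Immediate early genes, which neurons switch on with activity, had a median of -0.22 over 25, 20 negative and 0 called. Arc had -0.96 ± 0.39 and Fos -0.87 ± 0.46, but these and 11 other members were set aside because their effects differed between number sets. Of 20 glutamate receptor genes 0 were called and the median was -0.19. Grin2b, an NMDA receptor subunit, had -0.66 ± 0.24 and was set aside, and the metabotropic receptor Grm5 had -0.21. The DNA methyltransferase Dnmt3a had -0.18 and was also set aside. Malat1, a nuclear long RNA, had -1.04 ± 0.55 (limma, adjusted p = 0.736), made of 0.19 within set 1 and -2.14 within set 2.

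Of the remaining lists, that of the hypothalamus shares Agt, and the others held 0 called genes, against the same 0.126% of all genes. Their medians were 0.06 for striatum, -0.17 for hypothalamus, -0.10 for cerebellum, 0.01 for choroid plexus, 0.03 for circadian clock, -0.06 for chaperones, -0.06 for insulin and IGF signaling, 0.01 for lipid oxidation, -0.16 for cortical inhibitory neuropeptides, 0.06 for the 3 erythroid genes and -0.02 for 10 housekeeping genes. An index of 3' over 5' signal from Gapdh and beta-actin control probe sets ran from 0.47 to 0.55 on Mgmt-/- MAM arrays, 0.35 to 0.55 on wt MAM arrays, 0.39 to 0.79 on Mgmt-/- vehicle arrays and 0.31 to 0.43 on wt vehicle arrays, an interaction of -0.10, and its part in the results was examined with the index as a covariate, when 16 genes were called and 13 of the 19 remained.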

How the data were processed

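Brain RNA of 22 animals killed at 168 hr was analysed. The authors deposited log2 expression values for 45101 probe sets, made with RMA in the affy package per the labels, for which no version is named. RMA was run by the authors on arrays together with the liver RNA array, which was left out here. Probe sets were kept (32025, or 71.0%) when a joint F test of the 3 interactions with number set gave p above 0.15. A linear model of the 4 groups with number set as a block was fitted in limma 3.58.1 (R 4.3.3), with moderated tests in place of the study's ordinary linear model, and p-values were adjusted by Benjamini-Hochberg over all kept probe sets. A gene was called at adjusted p under 0.05 and a fold above 1.3, by its called probe set with the smallest p. List members are given by the brightest probe set. Errors are SE, and p-values measure the spread between separate animals, whose number limits the precision. Gene names in the text come from Mgmt, the 10 largest called genes each way and genes that earlier results name. Called and 2 to 4 most changed members of each list were also eligible, but not all of them are named. Camk2a, Snap25, Slc1a2, Mbp, Cnp, Bcas1, Csf1r, Tmem119, Gfap, Mt1, Mt2, Lcn2, Dusp1, Per1, Sqle, Sesn1, Cyp2d22, Dbndd2 and Prodh were added after their values were seen. Members and lists were chosen with earlier results of these data known. Promoter sequences came from RefSeq (GRCm38.p6), with 10 of 14 positive and 5 of 5 negative genes matched. The method was tested on simulated data. Alternatives covered filters, variance models, samples, number set, the RNA index, normalization and each array left out. Python 3.11.15, pandas 2.3.3, data.table (version 1.17.8) and matplotlib 3.10.9 were used.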

Additional observations from a re-analysis of the deposited data

Results flagged for a closer look

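In 8 of 96 groups of arrays examined, 1 array lay far from the rest, and chance alone does so in about 1 in 20 groups. Etnppl was low on wt vehicle animal E (8.85, others 9.06 to 9.17) and on Mgmt-/- vehicle animal A (8.75, others 9.22 to 9.43). Fbln5 was low on wt MAM animal D (6.42, others 6.66 to 6.73) and high on Mgmt-/- vehicle animal B (6.89, others 6.65 to 6.73). Mgmt-/- MAM animal D stood on the side of the vehicle arrays for Prodh (7.95, others 8.21 to 8.30) and for Qdpr (10.87, others 10.47 to 10.51). The mean level of liver genes was high on wt vehicle animal C (7.38, others 5.34 to 5.84) and on wt MAM animal B (5.87, others 5.24 to 5.31).

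The interaction at 168 hr differed from the mean of those at 6, 24 and 48 hr, by a test of that difference, for Sult1a1 (2.15), a called probe set with no single gene symbol (1.67), Etnppl (1.46), Fbln5 (1.05) and Fam107a (0.89).

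The Mgmt-/- MAM array that carried liver RNA, which no comparison used, held liver transcripts above every other 168 hr array. Alb was 14.05 there (others 5.50 to 10.66), Apoa2 13.75 (others 5.50 to 7.65) and Fgb 13.57 (others 3.78 to 6.70).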

How the results depend on the processing

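The 14 positive and 5 negative genes became 12 and 3 with each interaction with number set filtered on its own, 18 and 13 among the upper 60% of probe sets by mean, 16 and 8 with the brightest probe set of each gene, 7 and 2 with an ordinary linear model, 17 and 9 with an intensity trend and robust variance, 25 and 19 with array weights, 2 and 1 with all 4 times in 1 model, and 1 and 0 with the liver RNA array kept (limma, 1389 probe sets at unadjusted p under 0.05). They became 10 and 0 without the number set term (1788 probe sets at that p), 0 and 0 with number set 1 alone (2650 probe sets) and 16 and 99 with number set 2 alone, of which 5 genes were among the 19. Without the 4 arrays of highest liver gene level, an alternative chosen after seeing the data, they were 11 and 36. Leaving out 1 array at a time gave 8 to 20 positive and 1 to 16 negative genes. Of the 4 values that changed sign, Fam107a became -0.0195, Gjb6 -0.25 and Dbndd2 -0.15 with the liver RNA array kept, and Mpp6 became 0.0275 by its brightest probe set. The causes were not tested. The median of glucocorticoid-induced genes lay between 0.33 and 0.61 in every setting run. That of cholesterol synthesis genes lay between -0.29 and -0.22 with 1 array left out, and reached 0.15 with the liver RNA array kept. No paired analysis was possible because animal numbers do not pair animals across groups.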

Other observations

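Single genes outside the lists' medians also had sizeable values that did not pass limma's test. Pnoc, the precursor of the neuropeptide nociceptin, had an interaction of -0.45 (adjusted p = 0.158), and Alas2, the erythroid enzyme of heme synthesis, had -0.79 (adjusted p = 0.208).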
